A study of Arabidopsis thaliana with 6 samples.

Results

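Small heat-shock proteins are chaperones of low mass that share an alpha-crystallin domain and bind unfolding proteins without ATP, holding them until ATP-driven chaperones such as HSP70 and HSP101 refold them. Plants have many of them, sorted into classes for the cytosol, nucleus, chloroplast, endoplasmic reticulum, mitochondria and peroxisomes, and heat-shock transcription factors switch most of their genes on in heat. In vegetative tissue without stress many of these transcripts are scarce, and some also appear in maturing seeds and flowers.

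The genes described here are 5 small heat-shock protein genes, AT5G51440, AT5G37670, AT1G53540, ATHSP22.0 (AT4G10250) and AT1G52560. They were taken as the probe sets annotated to exactly 1 of these genes, which gave 5 of the 22810 probe sets on the array, 1 per gene, or 5 of 13350 genes with such a probe set. The genes were chosen with earlier results of these data known. AT5G51440 encodes a mitochondrial small heat-shock protein, AT5G37670 a peroxisomal one and AT1G53540 a cytosolic one of class I, and ATHSP22.0 encodes one of the endoplasmic reticulum.

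RNA came from whole light-grown Arabidopsis thaliana seedlings at the age of 10 days, raised without added stress on sucrose-containing agar medium under continuous light. The 3 groups were wild type, a transgenic line overexpressing the rice cDNA OsTOP6A3 (named OEA3L5 in the labels) and transgenic seedlings overexpressing the rice cDNA OsTOP6B, each with 2 biological replicates on 1 array apiece, 6 arrays in all. OsTOP6A3 and OsTOP6B encode the A and B subunits of topoisomerase VI, a type II topoisomerase. Columbia is the ecotype of 5 arrays, and the labels leave it out for wild-type replicate 1. The promoter of the transgenes is not given in the sources used here, each overexpressor has a single name, and there is no vector control, so an effect of the transgene and one of the line cannot be told apart.

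Array medians of the deposited intensities ran from 66.2 to 103.5, so the values were taken as log2(intensity + 16) and quantile normalized, and an intensity of 0 becomes 4 on this scale. A probe set was tested where its mean over the arrays reached the 25th percentile, 4.97 on the log2 scale or about 15.3 in intensity units, and this kept 17059 probe sets. A gene was called changed where limma's Benjamini-Hochberg adjusted p was under 0.05 over all of them. In whole seedlings, fewer cells of a type and less RNA per cell cannot be told apart. Of the green seedling markers 6 of 8 had a named probe set, none listed at 0 on any array, with mean normalized log2 levels of 12.25 and 12.27 in wild type, 12.17 and 12.20 with OsTOP6A3, and 12.03 and 12.24 with OsTOP6B. In each line 1 of these 6 genes was called higher and 1 lower. Over all tested probe sets 5.52% were called higher and 4.17% lower with OsTOP6A3, and 7.91% and 6.98% with OsTOP6B. Of the root markers 3 of 7 were measured, none at 0, and their mean log2 level was 8.53 and 8.55 in wild type, 9.02 and 9.09 with OsTOP6A3, and 9.40 and 9.47 with OsTOP6B. No seed maturation or flower marker had a named probe set, so these tissues were not checked.

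Of the 5 genes, 2 passed the filter on low values, AT5G51440 and AT5G37670. AT5G51440 was higher in both overexpressors and the only one to give a call, when both overexpressors were averaged. AT5G37670 gave no call. AT1G53540, ATHSP22.0 and AT1G52560 lay under the filter in the mean over all arrays, and their values are given as a description. In the comparisons of a single overexpressor with wild type, 0 of the 2 tested genes were called, against a background over all tested probe sets of 9.68% for OsTOP6A3 and 14.9% for OsTOP6B. Their unadjusted p was under 0.05 in 1 of 2 genes in each, AT5G51440, as it was for 25.9% and 31.4% of all tested probe sets.

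**Figure D1:**
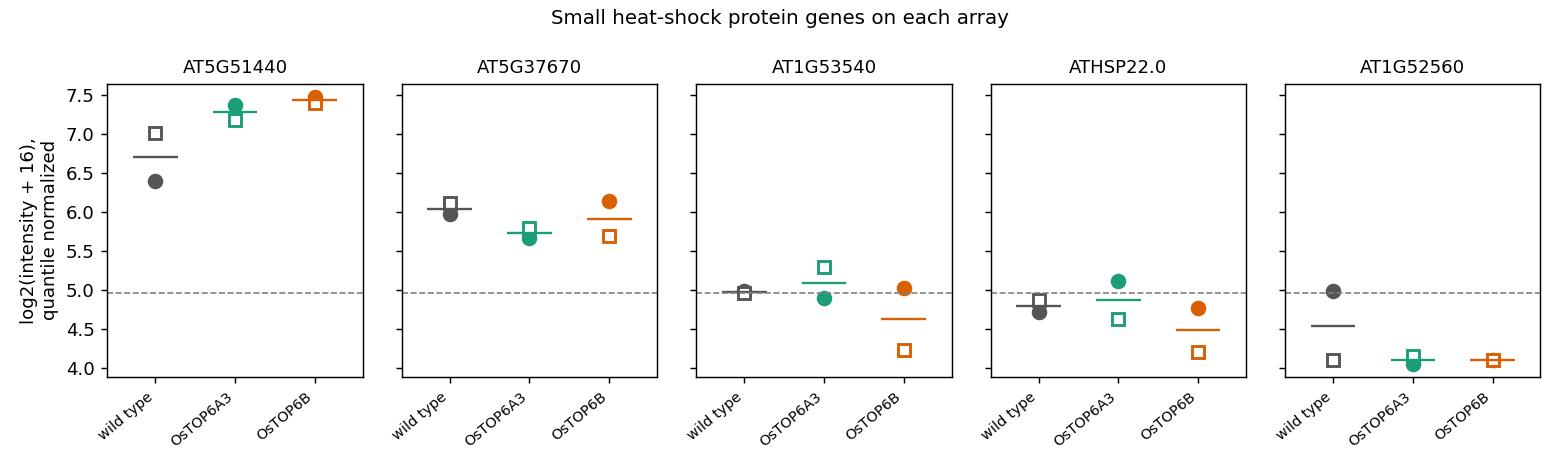
Normalized log2(intensity + 16) of the 5 genes on each array, by group (circle, replicate 1; square, replicate 2; bar, mean of both). The dashed line is the filter at 4.97. AT5G51440 is higher in all 4 overexpressor arrays than in both wild-type arrays, AT5G37670 spans 0.46 over all arrays, and the other 3 genes have means under the filter.

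The deposited intensity of AT5G51440 was 57.6 and 97.6 in wild type, 174.5 and 144.1 with OsTOP6A3, and 202.0 and 125.3 with OsTOP6B. After normalization the log2 levels were 6.39 and 7.01 in wild type, 7.37 and 7.18 with OsTOP6A3, and 7.47 and 7.39 with OsTOP6B. Every overexpressor array stood above both wild-type arrays on either scale. The wild-type arrays were the ones that differed most from each other, by 0.62 on the log2 scale with replicate 1 lower, and 3.32% of tested probe sets had a wild-type gap at least as large. The OsTOP6A3 arrays differed by 0.19 and the OsTOP6B arrays by 0.08.

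Relative to wild type, the AT5G51440 level was higher by 0.57 ± 0.20 (standard error, log2 scale, n = 2 arrays per group) with OsTOP6A3, or 1.49-fold with a 95% interval of 1.07 to 2.07, and the limma adjusted p of 0.125 did not pass. With OsTOP6B the difference was 0.73 ± 0.20 or 1.66-fold, with an interval of 1.20 to 2.30, and the adjusted p of 0.0509 did not pass either. Arrays that did not overlap and were higher than wild type are common here, 28.6% of tested probe sets for OsTOP6A3 and 27.2% for OsTOP6B. A difference at least as high was found in 6.71% and 5.10% of tested probe sets. Both comparisons share the wild-type arrays.

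For the mean of both overexpressors against wild type, AT5G51440 rose by 0.65 ± 0.18 (log2), which is 1.57-fold with an interval of 1.18 to 2.09, and the limma adjusted p was 0.0423. It was the 1 called gene of 2 tested, and 17.1% of all tested probe sets were called in this comparison, 9.07% as higher. All 4 overexpressor arrays were above both wild-type arrays, as in 19.7% of tested probe sets. The call was lost when any 1 array other than wild-type replicate 2 was left out. Without wild-type replicate 1, the array with no ecotype label, the rise was 0.35 (adjusted p = 0.252), and without any 1 overexpressor array it was 0.60 to 0.70 (adjusted p from 0.0681 to 0.111). Without wild-type replicate 2 it was 0.97 (adjusted p = 0.0162).

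Leaving out wild-type replicate 1 brought the difference to 0.27 with OsTOP6A3 (adjusted p = 0.471) and 0.43 with OsTOP6B (adjusted p = 0.202). Leaving out wild-type replicate 2 raised it to 0.89 with OsTOP6A3 (adjusted p = 0.0369) and 1.04 with OsTOP6B (adjusted p = 0.019), both then past the threshold. With OsTOP6B the gene also passed under several other settings, among them median scaling (0.75, adjusted p = 0.0381). Its sign was positive in all 3 comparisons with wild type under each alternative that was run.

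**Figure D2:**
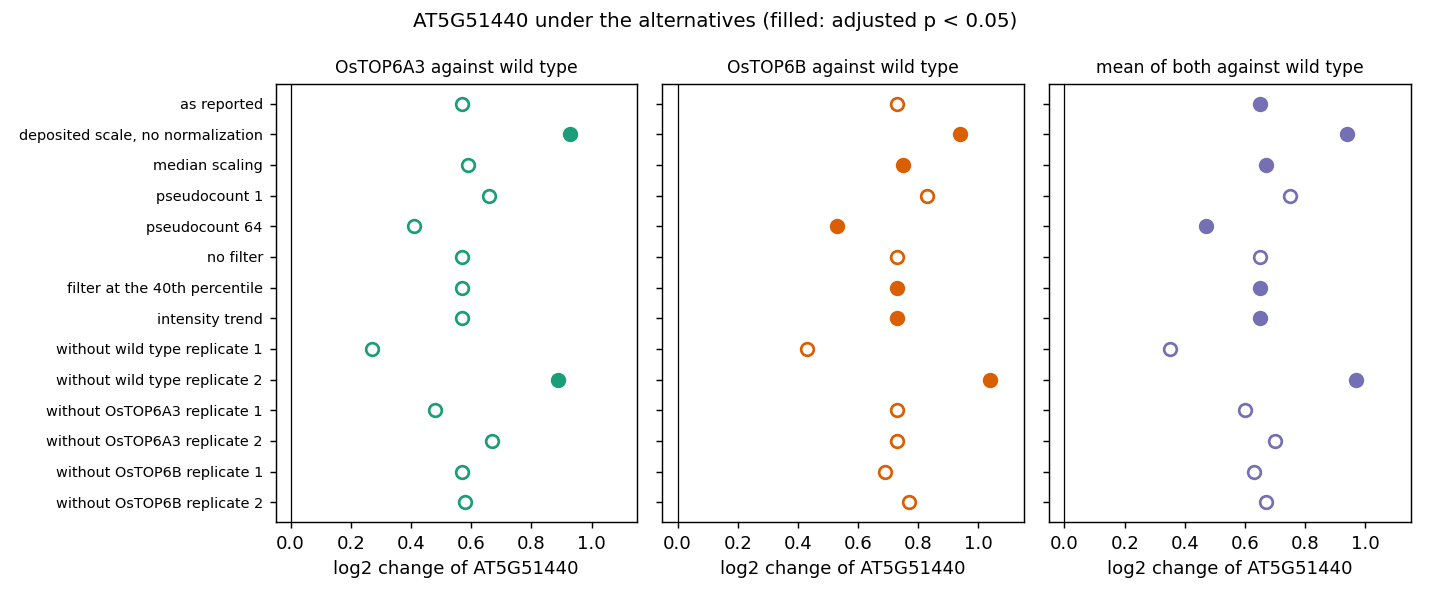
Log2 change of AT5G51440 from wild type as reported and with another scaling, pseudocount, filter or prior variance or with 1 array left out, for OsTOP6A3, OsTOP6B and the mean of both (filled points passed at an adjusted p under 0.05). All points lie above 0, from 0.27 without wild-type replicate 1 to 1.04 without wild-type replicate 2.

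In order of level the groups ran wild type, OsTOP6A3, OsTOP6B for AT5G51440, with group means of 6.70 ± 0.44, 7.27 ± 0.14 and 7.43 ± 0.05 (SD, n = 2, log2 scale). OsTOP6A3 and OsTOP6B differed by -0.16 ± 0.20, with a 95% interval from -0.63 to 0.32 and a limma adjusted p of 0.872, so a difference in either direction of up to that size remains possible. Their normalized arrays did not overlap, the OsTOP6A3 arrays being lower, as in 19.2% of tested probe sets, but the deposited intensities did overlap. Between the overexpressors limma called 0 of 17059 probe sets (0%), and 1235 had an unadjusted p under 0.05.

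AT5G37670, the peroxisomal gene, read 40 and 46 in wild type, 40.8 and 44.2 with OsTOP6A3, and 68.9 and 29.0 with OsTOP6B. The deposited OsTOP6B values were the highest and the lowest of all 6, and the other 4 lay within a narrow band between them. After normalization both OsTOP6A3 arrays, at 5.67 and 5.80, were below both wild-type arrays, at 5.97 and 6.11, as in 32.4% of tested probe sets. On the normalized log2 scale the group means were 6.04 ± 0.10, 5.74 ± 0.09 and 5.91 ± 0.32 (SD, n = 2), which puts wild type first, OsTOP6B second and OsTOP6A3 last, with no pair of groups distinguished by the test.

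The AT5G37670 differences from wild type were -0.30 ± 0.17 with OsTOP6A3 (interval -0.70 to 0.10, limma adjusted p = 0.313) and -0.13 ± 0.17 with OsTOP6B (interval -0.52 to 0.27, adjusted p = 0.658). OsTOP6A3 and OsTOP6B differed by -0.17 ± 0.17 (interval -0.57 to 0.22, adjusted p = 0.823). The mean of both overexpressors stood at -0.21 ± 0.15 from wild type (adjusted p = 0.356). The sign of the OsTOP6B value depended on 1 array and on the scaling. It was 0.10 without OsTOP6B replicate 2 and -0.35 without OsTOP6B replicate 1, and 0.07 on the deposited scale.

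AT1G53540, the cytosolic class I gene, was read at 14.0 and 12.8 in wild type, 15.4 and 24.9 with OsTOP6A3, and 20.4 and 2.4 with OsTOP6B. Its mean over the arrays was 4.90 on the log2 scale, just under the filter of 4.97. The OsTOP6A3 and OsTOP6B arrays overlapped wild type after normalization, and the single low array, OsTOP6B replicate 2, set the sign of the OsTOP6B difference, -0.34 with it and 0.06 without it. The OsTOP6A3 difference was 0.12. When the filter was dropped, limma's adjusted p for these 2 differences was 0.857 with OsTOP6A3 and 0.503 with OsTOP6B.

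ATHSP22.0, the gene of the endoplasmic reticulum, read 9.6 and 11.2 in wild type, 21.6 and 9.4 with OsTOP6A3, and 13.7 and 2.2 with OsTOP6B. Here too OsTOP6B replicate 2 gave the lowest value, and groups overlapped. Its mean was 4.72 on the log2 scale, and its differences from wild type were 0.08 with OsTOP6A3 and -0.30 with OsTOP6B. These had adjusted p of 0.891 and 0.498 in limma without the filter.

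AT1G52560 had 14.0 in wild-type replicate 1 and between 0.7 and 2.0 on the other 5 arrays, wild-type replicate 2 included at 1.0. Only 1 array was therefore above the rest, and the wild-type gap of 0.89 on the log2 scale was matched or passed by 3.96% of probe sets under the filter. The overexpressors' values overlapped with wild-type replicate 2. The differences of -0.43 with OsTOP6A3 and -0.44 with OsTOP6B come from that 1 wild-type array (limma adjusted p of 0.448 and 0.385 without the filter).

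The genes did not vary as 1 block over the arrays. Pearson's r over the 6 normalized values, which share arrays and the near-background range, lay between -0.919, for AT5G51440 with AT1G52560, and 0.606, for AT1G53540 with ATHSP22.0. Wild-type replicate 1 was the lowest array for AT5G51440 and the highest for AT1G52560, while OsTOP6B replicate 2 was the lowest for both AT1G53540 and ATHSP22.0. Candidates were 5284 tested probe sets with exactly 1 gene whose values spanned at least 0.5. Those whose 6 array values were most like AT5G51440 were of AT5G65750 (r = 0.998), AT4G28200 (r = 0.992) and AT3G49320 (r = 0.985), and 59 probe sets had an r over 0.95. AT5G65750 had differences from wild type of 0.96 with OsTOP6A3 and 1.16 with OsTOP6B. The nearest to AT5G37670 were B160 (0.967), AT1G65020 (0.965) and AT5G55340 (0.953). For the genes under the filter the nearest were AT2G28540 for AT1G53540, SPO11-2 for ATHSP22.0 and AT4G09830 for AT1G52560, with r from 0.986 to 0.996. With so many candidates and 6 arrays, these are given as a description.

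Of 14 other small heat-shock protein genes, 6 had a probe set with exactly 1 gene and 5 were tested. With OsTOP6A3 1 rose and 0 fell, and with OsTOP6B 2 rose and 0 fell, against 5.52% and 7.91% of all tested probe sets called higher. The list's median change was 0.30 and 0.25 on the log2 scale, beside -0.02 and -0.02 over all tested probe sets, and 4 of 5 values were positive in each comparison under all 3 scalings. AT5G47600 was under the filter. For the mean of both overexpressors 1 of the 5 tested genes rose and 0 fell, against 9.07% of all tested probe sets called higher. This was AT2G19310 (0.75, limma adjusted p = 0.0112), at 0.56 without wild-type replicate 2.

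AT2G19310 read 181.6 and 140.8 in wild type, 369.1 and 348.5 with OsTOP6A3, and 381.6 and 310.5 with OsTOP6B. All overexpressor arrays were higher than both wild-type arrays, which after normalization held for 19.7% of tested probe sets. The OsTOP6A3 line showed a rise of 0.71 ± 0.16 or 1.63-fold (limma adjusted p = 0.0348). The OsTOP6B line showed a rise of 0.80 ± 0.16 or 1.74-fold (adjusted p = 0.0174). Without wild-type replicate 2 the values were 0.52 (adjusted p = 0.154) and 0.61 (adjusted p = 0.0882). The OsTOP6A3 call was also lost without OsTOP6A3 replicate 1 (adjusted p = 0.172) or 2 (0.139), with a pseudocount of 1 (0.0683) and with no filter (0.077), and the OsTOP6B call without OsTOP6B replicate 2 (0.0761).

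AT4G21870 had intensities of 617.8 and 687.4 in wild type, 1067.8 and 1072.8 with OsTOP6A3, and 1302.8 and 856.4 with OsTOP6B. It rose by 0.46 ± 0.12 with OsTOP6B (limma adjusted p = 0.0474), and its value of 0.30 ± 0.12 with OsTOP6A3 did not pass (adjusted p = 0.18). The OsTOP6B call was lost in 11 alternatives, among them the leaving out of any 1 of the 6 arrays (lowest adjusted p 0.0597, when OsTOP6B replicate 2 was dropped, and highest 0.196, when wild-type replicate 1 was) and the deposited scale (0.115). AT5G54660 had 0.44 and 0.25, AT2G29500 0.05 and 0.15, and AT1G54050 -0.31 and -0.28, none passing.

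Of 24 genes for HSP70, HSP90, HSP100 and partner proteins, which refold what small heat-shock proteins hold, 4 were measured and all were tested. None was called with OsTOP6A3, and 1 fell with OsTOP6B, where 6.98% of all tested probe sets were called lower. This was AT5G48570, an FKBP-type co-chaperone gene, at -0.49 ± 0.12 (limma adjusted p = 0.0392), a call lost without any 1 of the 6 arrays (lowest adjusted p 0.069, when OsTOP6B replicate 1 was dropped, and highest 0.174, when wild-type replicate 2 was) on the deposited scale (-0.27, adjusted p = 0.652) and with no filter (0.0696). The HSP70 genes Hsp70-2 and AT3G09440 had -0.25 and -0.01 with OsTOP6A3, and -0.27 and -0.08 with OsTOP6B. Hop3, a gene for an HSP70 and HSP90 organizing protein, had -0.39 and -0.32. For the mean of both overexpressors 0 rose and 1 fell, AT5G48570 (-0.45, limma adjusted p = 0.0295), against 8.07% of all tested probe sets called lower. That call was lost in 6 alternatives. The list's median was -0.32 with OsTOP6A3 and -0.29 with OsTOP6B, and on the deposited scale 0.04 and -0.09, where all tested probe sets had medians of 0.34 and 0.18.

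Of 7 other heat-induced genes the 2 measured ones, HSA32 and the DnaJ-type gene AT2G20560, had -0.44 and -0.34 with OsTOP6A3 and -0.35 and -0.16 with OsTOP6B, and neither passed. In the annotation used, none of 21 heat-shock transcription factor genes and none of 7 mitochondrial chaperone genes had a probe set with exactly 1 gene. Probe sets naming no gene or several were left out, so these genes were not analysed here. Whether the array holds probes for them was not checked. A list of 12 genes for protein folding in the endoplasmic reticulum, the compartment of ATHSP22.0, held chaperones, folding enzymes and BZIP60, a transcription factor of the unfolded protein response. Of these, 4 were tested and 0 were called in either comparison with wild type, against 9.68% (OsTOP6A3) and 14.9% (OsTOP6B) of all tested probe sets. The chaperone genes CRT1b, ATERDJ3B and AT5G07340 had -0.35, -0.15 and -0.23 with OsTOP6A3 and -0.28, -0.11 and -0.33 with OsTOP6B, and BZIP60 had 0.30 and 0.27. The signs depended on the scaling. On the deposited scale the median of these 4 genes was 0.19 with OsTOP6A3 and 0.03 with OsTOP6B, where all tested probe sets had 0.34 and 0.18.

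**Figure D3:**
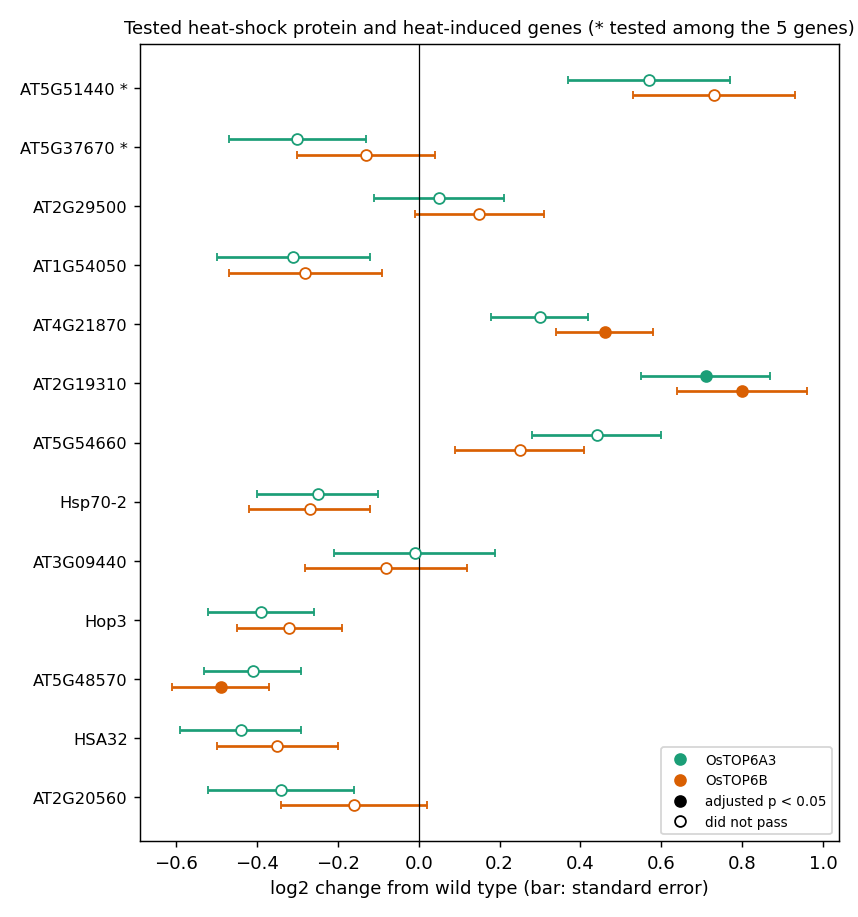
Log2 change from wild type, with its standard error, of AT5G51440 and AT5G37670 (starred), 5 further small heat-shock protein genes, 4 genes of HSP70 and partner proteins and 2 other heat-induced genes. Filled points passed at an adjusted p under 0.05. AT2G19310 passed in both lines, AT4G21870 and AT5G48570 passed with OsTOP6B.

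AT5G51440 is known as a gene whose transcript rises when mitochondria malfunction, along with genes such as the alternative oxidase gene AOX1A. Of 13 other genes of that kind, 7 had a named probe set and all were tested. AOX1A was not among these 7. With OsTOP6A3 1 rose and 1 fell, and with OsTOP6B 4 rose and 1 fell, while the background was 5.52% higher and 4.17% lower for OsTOP6A3 and 7.91% and 6.98% for OsTOP6B. For the mean of both overexpressors, the comparison in which AT5G51440 was called, 4 rose and 2 fell, against 9.07% and 8.07% of all tested probe sets. The list's median change was 0.47 and 0.84 on the log2 scale, beside -0.02 and -0.02 over all tested probe sets, and 5 of 7 values were positive in each comparison under all 3 scalings. The change of AT2G04050 was known before the list was written. It is the 1 gene that rose with OsTOP6A3, and it is among the 4 that rose with OsTOP6B and in the mean of both.

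AT2G21640 read 78.3 and 158.7 in wild type, 329.0 and 309.0 with OsTOP6A3, and 444.8 and 229.7 with OsTOP6B. As for AT5G51440, wild-type replicate 1 was the lowest array and no overexpressor array reached down to wild type. After normalization 19.7% of tested probe sets had all overexpressor arrays above wild type. It rose by 1.18 ± 0.27 with OsTOP6B (2.26-fold, limma adjusted p = 0.0286), and its 1.02 ± 0.27 with OsTOP6A3 did not pass (adjusted p = 0.0587). Dropping wild-type replicate 1 ended the OsTOP6B call (0.74, adjusted p = 0.0886), as did dropping OsTOP6B replicate 1 (adjusted p = 0.113) or 2 (adjusted p = 0.065), a pseudocount of 1 (0.068) and no filter (0.0703).

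NDB4, which encodes an external NAD(P)H dehydrogenase of mitochondria, read 16.4 and 20.5 in wild type, near the filter of about 15.3. It read 41.0 and 46.5 with OsTOP6A3, and 75.2 and 35.4 with OsTOP6B. NDB4 rose by 0.84 ± 0.16 with OsTOP6B (limma adjusted p = 0.0144) and had 0.55 ± 0.16 with OsTOP6A3 (adjusted p = 0.0778). Its OsTOP6B value was 1.22 with a pseudocount of 1 and 0.43 with a pseudocount of 64. Dropping wild-type replicate 1 (adjusted p = 0.0839) or OsTOP6B replicate 1 (0.0508) ended the call. AT2G41730 rose by 0.95 ± 0.20 with OsTOP6B (adjusted p = 0.0214) and had 0.47 with OsTOP6A3, a call lost without wild-type replicate 1 (0.111), OsTOP6B replicate 1 (0.0828) or OsTOP6B replicate 2 (0.0634), with a pseudocount of 1 (0.0513) and with no filter (0.0546). The MATE efflux gene AT2G04050 rose 9.01-fold and 9.10-fold (limma adjusted p = 0.00124 and 0.00108), from intensities of 24.7 and 31.6 in wild type to between 243.0 and 748.6 in the overexpressors, and AT2G04070, also a MATE gene, had 0.35 and 0.79 and did not pass. In the other direction AT2G41380 fell by 1.45 on the log2 scale with OsTOP6A3 and by 1.02 with OsTOP6B (limma adjusted p of 0.00196 and 0.00703), where in the latter the call was lost on the deposited scale (-0.78, adjusted p = 0.0537). AT5G09570 had -0.51 and -0.47, neither passing, and fell in the mean of both overexpressors (-0.49, limma adjusted p = 0.0407). That call was lost in 9 alternatives, among them the leaving out of any 1 array other than OsTOP6B replicate 1 (adjusted p from 0.0574 to 0.183) and the deposited scale (-0.19, adjusted p = 0.628).

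**Figure D4:**
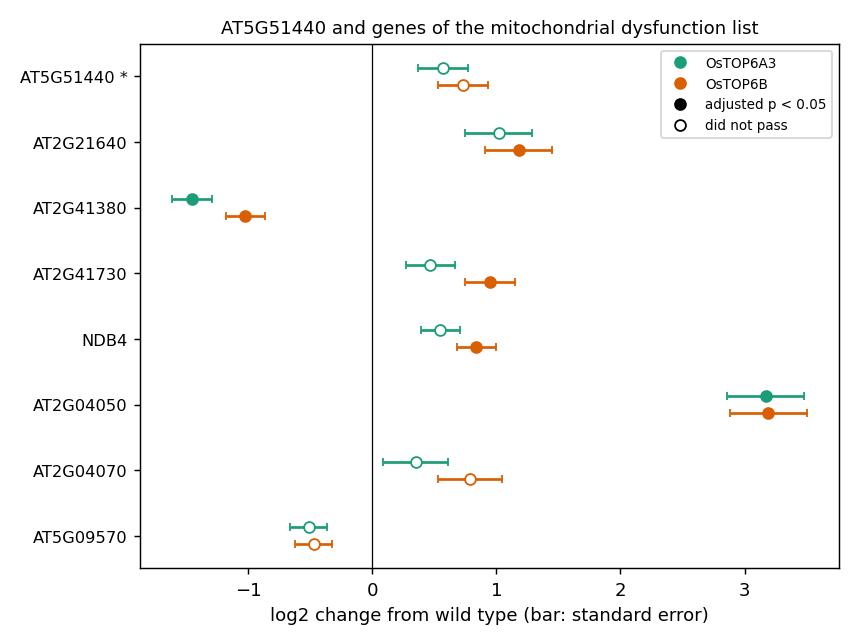
Log2 change from wild type, with its standard error, of AT5G51440 (starred) and the 7 tested genes of the mitochondrial dysfunction list. Filled points passed at an adjusted p under 0.05. AT2G04050 lies above 3 in both lines, and AT2G41380 and AT5G09570 lie below 0.

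Some root markers were also higher in the overexpressors. EXPA7, an expansin gene of root hairs, had 1.23 with OsTOP6A3 and 1.73 with OsTOP6B on the log2 scale and passed in each line (limma adjusted p = 0.00357 and 0.00077). EXPA18 had 0.15 and 0.81 and passed with OsTOP6B (adjusted p = 0.0141), and PYK10 had 0.16 and 0.15 and did not pass. Summed deposited intensities of the 3 measured root markers ran from 5602.6 to 6513.8 in wild type, 8529.6 to 8810.0 with OsTOP6A3 and 5449.5 to 8676.7 with OsTOP6B, mostly from PYK10. Dropping wild-type replicate 1 ended the EXPA18 call (adjusted p = 0.0825).

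Among the green seedling markers, the genes LHCB4.2 and PSAN moved in opposite directions. LHCB4.2, which encodes a light-harvesting protein of photosystem II, read 1440.9 and 1586.6 in wild type, 3517.5 and 3258.1 with OsTOP6A3, and 2991.4 and 2835.5 with OsTOP6B. It rose by 0.72 and 0.79 on the log2 scale (limma adjusted p = 0.0344 and 0.0193). PSAN, which encodes a subunit of photosystem I, read 3464.3 and 3726.1 in wild type, 2758.1 and 2887.1 with OsTOP6A3, and 2274.0 and 2170.0 with OsTOP6B. It fell by 0.71 and 0.83 (limma adjusted p = 0.0327 and 0.0141). Neither gene's overexpressor arrays overlapped with wild type. After normalization, all overexpressor arrays stood above wild type in 19.7% of tested probe sets, and the OsTOP6A3 arrays stood below it in 32.4%. The other 4 markers had values from -0.28 to 0.02, none passing. Of these, LHCB4.1, also of photosystem II, had -0.18 with OsTOP6A3 and -0.23 with OsTOP6B. PSAE-1, of photosystem I, had -0.17 and -0.28. With so few markers, whether either photosystem moved as a whole was not tested. Without wild-type replicate 1 or 2 neither gene passed in either line (adjusted p from 0.0677 to 0.149). The OsTOP6A3 calls were also lost without either OsTOP6A3 array (0.117 to 0.183), with a pseudocount of 1 (0.0706 for LHCB4.2 and 0.0683 for PSAN) and with no filter (0.0767 and 0.0729). The OsTOP6B call of LHCB4.2 was lost without OsTOP6B replicate 2 (0.0508), and on the deposited scale PSAN passed in neither line (-0.35 and -0.69, adjusted p = 0.394 and 0.106). The part of the root and green markers in the AT5G51440 result was not tested.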

How the data were processed

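Total RNA of 6 samples was labelled with biotin and hybridised to 1-colour Arabidopsis oligonucleotide arrays, per the labels. The deposited intensities are linear, 1 per probe set and array, and for the authors' probe summary, background correction and scaling nothing is stated in those sources. After removal of 64 control probe sets there were 22746. Quartiles of the log2 columns differed by 0.54, over the limit of 0.1, so arrays were quantile normalized after a pseudocount of 16, which shrinks changes of weak genes. Probe sets were named from the array's annotation table with loci of TAIR10.1, used for names only; 13513 had exactly 1 gene and 13508 of these matched a locus.

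The fit used limma 3.58.1 (R 4.3.3) on all 6 arrays, 1 mean per group (3 residual and 4.61 prior degrees of freedom), and 4 contrasts were tested two-sided with Benjamini-Hochberg adjustment over 17059 probe sets. The fit was checked on simulated data. The number of arrays limits the precision. Genes with several probe sets took the one with the highest mean. The text names the 5 genes, measured genes of the heat-shock lists, and called and up to 4 further genes of other lists. It also names the 3 genes most like each tested gene of the 5, and 1 for each gene under the filter. The members and lists were chosen with earlier results of these data known. Of 131 list genes, 32 had a named probe set. The labels call the replicates biological. Columns with no sample numbered 0.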

Additional observations from a re-analysis of the deposited data

How the results depend on the processing

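All calls of the 5 genes are calls of AT5G51440, so the count of called genes is 1 where it passed and 0 where it did not. For the mean of both overexpressors the count of 1 became 0 with the replicate block (0.65, adjusted p = 0.0547), a pseudocount of 1 (0.75, 0.0799), and no filter (0.65, 0.0884, with 22746 probe sets tested); leaving out 1 array gave 0.35 to 0.97 and counts of 0 to 1. Adjusted p without OsTOP6A3 replicate 1 or 2 and OsTOP6B replicate 1 or 2 was 0.111, 0.0681, 0.0831 and 0.0781. For OsTOP6A3 the count of 0 became 1 on the deposited scale (0.93, adjusted p = 0.0153, where the median of all changes was 0.34), and leaving out 1 array gave 0.27 to 0.89 and counts of 0 to 1. For OsTOP6B it became 1 on the deposited scale (0.94, 0.0173), with median scaling (0.75, 0.0381), a pseudocount of 64 (0.53, 0.018), a filter at the 40th percentile (0.73, 0.0297, with 13648 tested) and an intensity trend (0.73, 0.0206); leaving out 1 array gave 0.43 to 1.04 and counts of 0 to 1. The difference between the overexpressors passed in none. The AT5G37670 value turned positive on the deposited scale with OsTOP6B (0.07) and for the mean of both (0.03), and when 1 array was left out: with OsTOP6B it ran from -0.35 to 0.10 and between the overexpressors from -0.41 to 0.05. The cause was not tested.

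Probe sets called fell from 1652 to 1100 with a pseudocount of 1, 1002 with no filter and 560 to 870 without an array of either group for OsTOP6A3; from 2540 to 1460 on the deposited scale, 1608 with no filter, and 1054 and 1251 without wild-type replicate 1 or 2 for OsTOP6B; and from 2924 to between 1149 and 1821 without a wild-type or OsTOP6A3 array for the mean of both. Between the overexpressors 5 were called on the deposited scale, and 1 each with a pseudocount of 64 and an intensity trend. Where an arm was left with 1 array, it is assumed to vary like the other groups. Groups share replicate numbers. Over all tested probe sets, deviations of same-numbered arrays correlated at 0.00206, -0.05 and 0.0155. Such values cannot exclude a tie between same-numbered arrays for a part of the probe sets. With the replicate block the probe sets called were 1452, 2161, 2588 and 0 for OsTOP6A3, OsTOP6B, the mean of both and the difference, and among the list genes called with a single overexpressor AT2G19310 with OsTOP6A3 (adjusted p = 0.0515), AT4G21870 with OsTOP6B (0.0733) and AT5G48570 with OsTOP6B (0.0588) passed no longer. Levels under the filter limit what can be seen for AT1G53540, ATHSP22.0 and AT1G52560.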
